A study of Rattus norvegicus with 6 samples.

Results

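The aquaporins of the rat kidney and the vasopressin V2 receptor were followed through 19 array probes of 10 genes, out of 61657 non-control probes and 15284 named genes. The genes were Aqp1, Aqp2, Aqp3, Aqp4, Aqp5, Aqp6, Aqp7, Aqp8, Aqp11 and Avpr2, and every probe whose RefSeq accession belongs to one of them was taken, whatever its signal. Total RNA of renal cortex came from 6 male Sprague-Dawley (Crl:CD(SD)) rats bought at 5 weeks of age. For 4 weeks, 3 of them received corn oil, the vehicle, and 3 received o-nitroanisole, a nitroaromatic compound, at 400 mg/kg/day. Each rat gave 1 one-colour array, so n is 3 per group throughout. The labels call the arrays of a group biological replicates, and the route of dosing is not given in the sources used here.

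Aquaporins are membrane channels for water, and the aquaglyceroporins among them also pass glycerol. In the kidney they are laid out by segment. Aqp1 and Aqp7 serve the proximal tubule, Aqp2, Aqp3 and Aqp4 the principal cells of the collecting duct, and Aqp6 the acid-secreting intercalated cells. Vasopressin binds Avpr2 on the basolateral side of principal cells, cAMP rises, and Aqp2 moves to the apical membrane while its transcription is also raised, so that water leaves the urine through Aqp2 and then through Aqp3 and Aqp4.

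Levels are given as log2 of the processed signal relative to the array's 75th percentile, so that 0 is that percentile. Levels of different probes are not comparable with each other, because each probe binds its target differently. A log2 difference is o-nitroanisole minus corn oil, with its moderated standard error (SE), and adjusted p-values are Benjamini-Hochberg values over all tested probes. A probe was tested if it was well above background on all arrays of at least 1 group. Of the 19 probes 17 were tested, and 16 of these were well above background on all 6 arrays. The 2 left out were both probes for Aqp4.

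The share of non-control probes detected above background ran from 66.4% to 71.5% over the arrays. All corn oil arrays lay on one slide and all o-nitroanisole arrays on another, so slide and treatment cannot be told apart for any value below. In limma with its default moderation 0 of 41096 tested probes passed an adjusted p of 0.05 (0.0% called) and the lowest adjusted value was 0.0789. Before adjustment, 4839 probes were higher (11.8%) and 2971 lower (7.23%) at p under 0.05. With a variance trend and robust moderation 663 probes passed (1.61% called), and with normexp background correction 147 passed (0.358%).

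Across the aquaporin and Avpr2 probes, direction and overlap varied between genes and also between probes of some genes. Both Aqp6 probes, the Aqp5 probe, the Aqp7 probe, 2 of the 4 tested Aqp4 probes and 1 of the 2 Aqp2 probes were higher after o-nitroanisole with no overlap between the groups, 7 probes in all. One Avpr2 probe and one Aqp8 probe were lower with no overlap. The other 8 tested probes overlapped, among them those of Aqp1, Aqp3 and Aqp11. The groups did not overlap upwards for 17.5% of all tested probes and downwards for 9.74%, so that 7 and 2 of 17 stand beside those shares. The same 9 probes were those at an unadjusted p under 0.05, and 0 of the 17 passed the adjusted threshold in the default fit. The median log2 difference over the 17 was 0.16, against 0.027 over all tested probes.

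**Figure D1:**
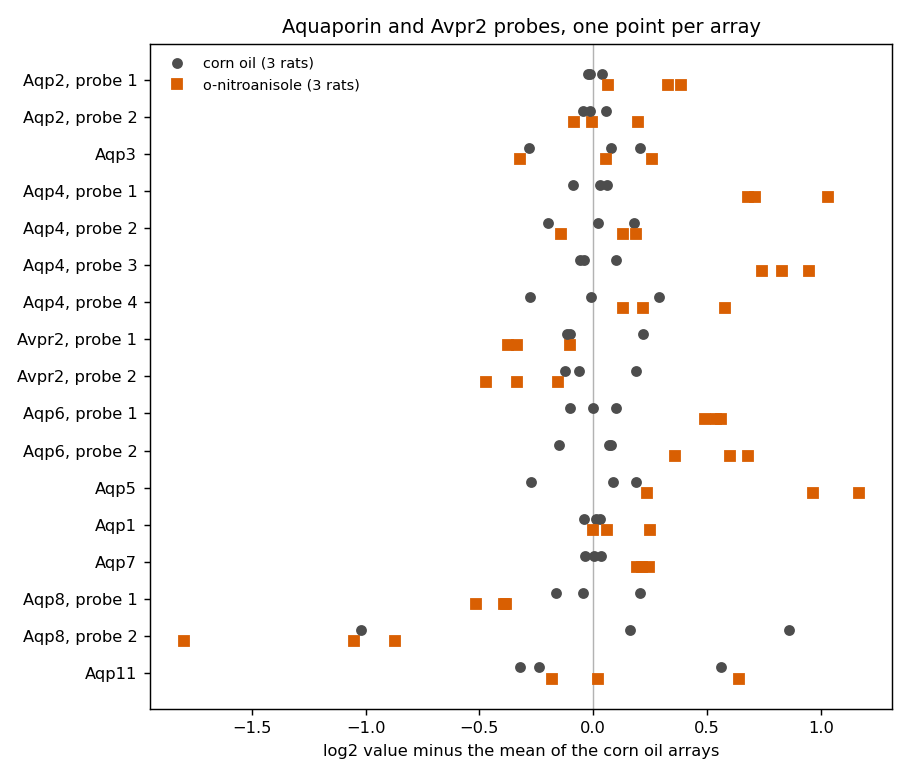
Log2 value of each tested probe minus the mean of the corn oil arrays (x axis), with one point per array: grey circles for the 3 corn oil rats and orange squares for the 3 o-nitroanisole rats. The Aqp6 probes, Aqp5, Aqp7, Aqp4 probes 1 and 3 and Aqp2 probe 1 have all squares to the right of all circles, and probes of a gene are numbered by their mean signal.

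Aqp2, the vasopressin-regulated apical water channel of principal cells, was measured by 2 probes. On probe A_64_P007189 the corn oil arrays read 6.14, 6.08 and 6.09 and the o-nitroanisole arrays 6.17, 6.49 and 6.43. The groups did not overlap, but the gap between the highest corn oil and the lowest o-nitroanisole array was narrow. The log2 difference was 0.26 ± 0.10 (SE, adjusted p = 0.241), a 1.20-fold higher level. Under quantile normalization it was 0.11 (adjusted p = 0.569).

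On the other Aqp2 probe, A_42_P763077, the corn oil arrays read 3.37, 3.30 and 3.27 and the o-nitroanisole arrays 3.31, 3.51 and 3.23. Here the groups overlapped, with a log2 difference of 0.03 ± 0.09 (95% interval -0.19 to 0.26), which turned to -0.03 under quantile normalization. Taken within each array, the second probe minus the first read -2.77, -2.79 and -2.82 in corn oil and -2.86, -2.99 and -3.20 after o-nitroanisole. That shift between the probes was -0.22 ± 0.09 and did not pass (adjusted p = 0.367, 95% interval -0.45 to 0.01), so the probes of Aqp2 were not shown to respond differently.

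Aqp2, Aqp5 and Aqp6 are direct neighbours on rat chromosome 7 in the RefSeq gene table of assembly GRCr8, in that order and on the same strand. Their start-site windows (250 bases before to 50 after the start, RefSeq, GRCr8, plus strand) are shown because the 3 genes lie side by side and all have a probe with higher values after o-nitroanisole. Capitals mark matches to the motifs searched.
Aqp2 (chr7:132590036-132590335): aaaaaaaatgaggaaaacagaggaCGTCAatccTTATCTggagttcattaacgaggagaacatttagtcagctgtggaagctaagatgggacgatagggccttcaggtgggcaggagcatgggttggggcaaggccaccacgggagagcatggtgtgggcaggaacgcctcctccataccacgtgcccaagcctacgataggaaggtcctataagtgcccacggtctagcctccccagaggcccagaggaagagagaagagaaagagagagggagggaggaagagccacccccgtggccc
Aqp5 (chr7:132601278-132601577): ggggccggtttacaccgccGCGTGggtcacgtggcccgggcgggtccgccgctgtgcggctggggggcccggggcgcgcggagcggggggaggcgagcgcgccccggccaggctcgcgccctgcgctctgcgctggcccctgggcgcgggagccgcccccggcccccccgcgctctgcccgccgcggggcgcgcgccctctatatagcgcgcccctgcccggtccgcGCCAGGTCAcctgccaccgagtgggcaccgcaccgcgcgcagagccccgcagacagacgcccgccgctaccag
Aqp6 (chr7:132610819-132611118): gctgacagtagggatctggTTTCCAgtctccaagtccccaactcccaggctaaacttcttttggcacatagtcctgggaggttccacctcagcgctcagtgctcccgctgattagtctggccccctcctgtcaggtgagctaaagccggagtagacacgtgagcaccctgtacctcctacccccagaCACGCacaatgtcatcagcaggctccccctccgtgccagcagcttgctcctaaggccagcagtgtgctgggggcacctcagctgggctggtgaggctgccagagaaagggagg

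The search covered both strands. The cAMP response element, TGACGTCA, was held by 1.83% of 33469 promoter windows of 300 bases, and its shorter core, TGACG, which the full element contains, by 21.2%. The letters of a GATA factor site, AGATAA, were in 11.6% of windows. The core bound by the tonicity factor NFAT5, TGGAAA, was in 22.7%. The core bound by the aryl hydrocarbon receptor, GCGTG, was in 29.7%, the antioxidant response element, TGACNNNGC, in 12.1%, and the TATA box, TATAAA, in 14.2%. The Aqp2 window held the shorter cAMP core, on the minus strand, from base -226 and a GATA match, also on the minus strand, from base -217. The Aqp5 window, 82.3% G and C, held GCGTG from base -231 and an antioxidant match on the minus strand from base -23. The Aqp6 window held the aryl hydrocarbon receptor core on the minus strand from base -63, and the NFAT5 core on the minus strand from base -231. No match was shared by all of these 3 windows, and a match of letters is not a measured binding site.

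Aqp3, the basolateral aquaglyceroporin of principal cells, had 1 probe. Its values were 4.69, 5.05 and 5.18 in corn oil and 5.23, 5.03 and 4.65 after o-nitroanisole, which is nearly the same range in both groups. The log2 difference was -0.000822 ± 0.19, and the 95% interval from -0.48 to 0.47 leaves room for a change of either sign. Its sign turned with median scaling (0.02) and with normexp (0.06).

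Aqp4, the second basolateral water channel of principal cells and the main one of brain astrocytes, had 6 probes. Probe A_44_P561166 read -0.44, -0.56 and -0.41 in corn oil and 0.24, 0.21 and 0.56 after o-nitroanisole. All treated arrays were above all controls, by a log2 difference of 0.81 ± 0.11 (adjusted p = 0.0896) or 1.75-fold. Probe A_44_P819726 read -3.75, -3.89 and -3.91 in corn oil and -3.02, -3.11 and -2.90 after o-nitroanisole. This gave 0.84 ± 0.08 (adjusted p = 0.0789), or 1.79-fold. That adjusted p equals the lowest over all tested probes. Many probes can share a Benjamini-Hochberg value, so it does not rank this probe first. These 2 probes passed the threshold with the variance trend and robust moderation (adjusted p = 0.0330 and 0.0343). Leaving out any 1 of the 6 arrays ended both calls: the adjusted p in that fit then ranged from 0.0540 to 0.0975 for the first and from 0.0597 to 0.106 for the second. Calls over all tested probes in that fit fell as well, from 663 with all arrays to between 0 and 76. The log2 differences of the 2 Aqp4 probes stayed between 0.69 and 0.87 and between 0.79 and 0.89. With normexp they were 0.59 and 0.47. The second probe was dim, with a corn oil mean of -3.85.

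The other tested Aqp4 probes showed less. Probe A_64_P036063 read -2.59, -2.97 and -2.75 in corn oil and -2.91, -2.64 and -2.58 after o-nitroanisole, with overlapping groups and a log2 difference of 0.06 ± 0.13 (95% interval -0.28 to 0.39). Probe A_64_P018751 read -5.49, -4.92 and -5.22 in corn oil and -5.08, -4.99 and -4.63 after o-nitroanisole, with a difference of 0.31 ± 0.19 (adjusted p = 0.423). This last probe lay close to the background limit, which was between -6.43 and -5.67 on these arrays.

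The 2 untested Aqp4 probes were not well above background on all arrays of either group. Probe A_44_P934428 was well above it on 2 corn oil arrays and 1 o-nitroanisole array. Its values were -3.30, -7.54 and -3.96 in corn oil and -5.51, -6.36 and -5.95 after o-nitroanisole, so the controls alone spread on both sides of the treated arrays. Probe A_44_P448461 was above it on 2 o-nitroanisole arrays and 0 corn oil arrays. Its values of -5.78, -5.96 and -5.99 in corn oil and -5.92, -5.69 and -5.32 after o-nitroanisole overlapped, and no direction is drawn from them. It is the one probe of the 6 designed on NM_012825, and the other 5 carry NM_001142366. The gene table places both accessions in Aqp4. The exons that each probe reads are not given in the sources used here.

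Whether the Aqp4 probes responded differently was tested within arrays, as each tested probe minus the mean of the other 3. For A_64_P036063 this contrast read 0.64, 0.15 and 0.43 in corn oil and -0.29, -0.02 and -0.26 after o-nitroanisole, a shift of -0.60 ± 0.14 (unadjusted p = 0.00674, adjusted p = 0.225). The shift was 0.40 ± 0.07 for A_44_P561166 (adjusted p = 0.202), 0.45 ± 0.09 for A_44_P819726 (adjusted p = 0.212) and -0.26 ± 0.20 for A_64_P018751 (adjusted p = 0.604). The groups did not overlap for the first 3, where 21.9% of 10572 such contrasts over all genes did not overlap and 13.9% had an unadjusted p under 0.05. The sizes moved with the processing. With no filter on dim probes, which brings the 2 untested probes into each mean, the shift was -0.19 for A_64_P036063, 0.71 for A_44_P561166 and 0.76 for A_44_P819726. With normexp it was -0.38, 0.38 and 0.22 for the same 3 probes. As the 4 contrasts share probes, they are not independent, and 0 of 10572 passed the adjusted threshold (0.0% called), so the disagreement between the Aqp4 probes was not shown beyond the spread of the arrays after correction.

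RefSeq lists 2 start-site windows for Aqp4 on the minus strand of GRCr8, shown here because this gene has more than 1 start. Capitals mark TGGAAA or its reverse complement, the single motif of those searched that either window held.
Aqp4, start 1 (chr18:6798793-6799092): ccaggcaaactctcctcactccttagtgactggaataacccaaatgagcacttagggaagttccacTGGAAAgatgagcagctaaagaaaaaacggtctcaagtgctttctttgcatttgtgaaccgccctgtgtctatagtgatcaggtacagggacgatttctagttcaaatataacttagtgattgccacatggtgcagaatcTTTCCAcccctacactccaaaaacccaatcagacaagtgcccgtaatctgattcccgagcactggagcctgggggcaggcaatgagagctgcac
Aqp4, start 2 (chr18:6797877-6798176): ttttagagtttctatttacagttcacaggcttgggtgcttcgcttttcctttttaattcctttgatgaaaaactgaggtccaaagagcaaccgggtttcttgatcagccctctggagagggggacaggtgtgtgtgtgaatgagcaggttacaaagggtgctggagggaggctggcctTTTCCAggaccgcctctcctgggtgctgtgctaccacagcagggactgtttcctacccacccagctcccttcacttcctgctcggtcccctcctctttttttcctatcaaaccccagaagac

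The first window held that core from base -184 and from base -44, and the second from base -72. Which start is used in renal cortex was not measured.

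**Figure D2:**
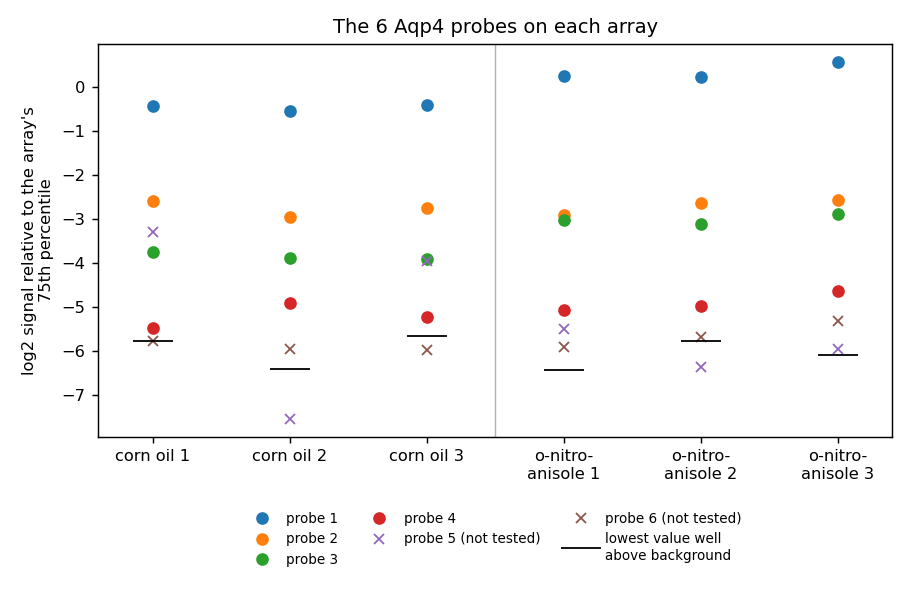
Log2 signal of the 6 Aqp4 probes relative to each array's 75th percentile (y axis), one point per array, with circles for tested and crosses for untested probes and a black bar at the lowest value well above background on that array. Probes 1 and 3 (A_44_P561166 and A_44_P819726) are higher on all 3 o-nitroanisole arrays, and probes 2 and 4 (A_64_P036063 and A_64_P018751) overlap. Probe 5 (A_44_P934428) spreads from well above to below the limit, and probe 6 (A_44_P448461) sits near it.

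Avpr2, the Gs-coupled receptor through which vasopressin acts on principal cells, was lower on both of its probes. Probe A_64_P031890 read 0.02, 0.27 and -0.04 in corn oil and -0.39, -0.07 and -0.25 after o-nitroanisole. The groups were separated by a small gap, with a log2 difference of -0.32 ± 0.12 (adjusted p = 0.235), a level of 0.799 times that of corn oil. Probe A_43_P11944 read 0.01, 0.33 and 0.00 in corn oil and -0.26, 0.01 and -0.22 after o-nitroanisole, with a difference of -0.27 ± 0.13 (adjusted p = 0.329). Its groups overlapped. Within arrays the contrast between the probes shifted by 0.06 ± 0.05 (adjusted p = 0.655, 95% interval -0.07 to 0.18). With normexp the differences were -0.38 and -0.15, and the contrast was 0.23 (adjusted p = 0.0690).

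Markers of principal cells were measured beside these genes. Of 20 tested markers, 8 were higher and 0 lower at an unadjusted p under 0.05 (40.0%), where 14.0% of 11815 named genes were higher and 6.63% lower, and 0 passed the adjusted threshold (0.0% of named genes called). The median was 0.19, against 0.04 over all named genes, and 0.11 with quantile normalization or normexp and 0.12 with the mean of a gene's probes. The summed marker signal, in units of the array's 75th percentile, ran from 316 to 366 in corn oil and from 388 to 423 after o-nitroanisole. Most of that sum came from Ldhb, a lactate dehydrogenase subunit, and Pcbd1, a cofactor of HNF1 factors, both singled out after their values were seen. Without Ldhb alone the sum was 214 to 238 in corn oil and 244 to 273 after o-nitroanisole, with no overlap. Without these 2 the sum was 128 to 139.6 and 138 to 162, with overlapping groups. The keratins Krt18 at 1.23 ± 0.13 and Krt8 at 0.77 ± 0.10, which are found in all simple epithelia, had the smallest p-values, followed by Tfcp2l1, a transcription factor of the collecting duct, at 0.44 ± 0.10. Scnn1g, a subunit of the epithelial sodium channel, lay at 0.30 ± 0.08, and Hsd11b2, which protects the mineralocorticoid receptor from glucocorticoids, at -0.18 ± 0.17. All 20 were well above background on all arrays. The part of principal cell content in the Aqp2 and Aqp4 values was not tested, and Avpr2 lay in the opposite direction to these markers. In whole cortex, more cells of a type and more RNA per cell cannot be told apart.

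**Figure D3:**
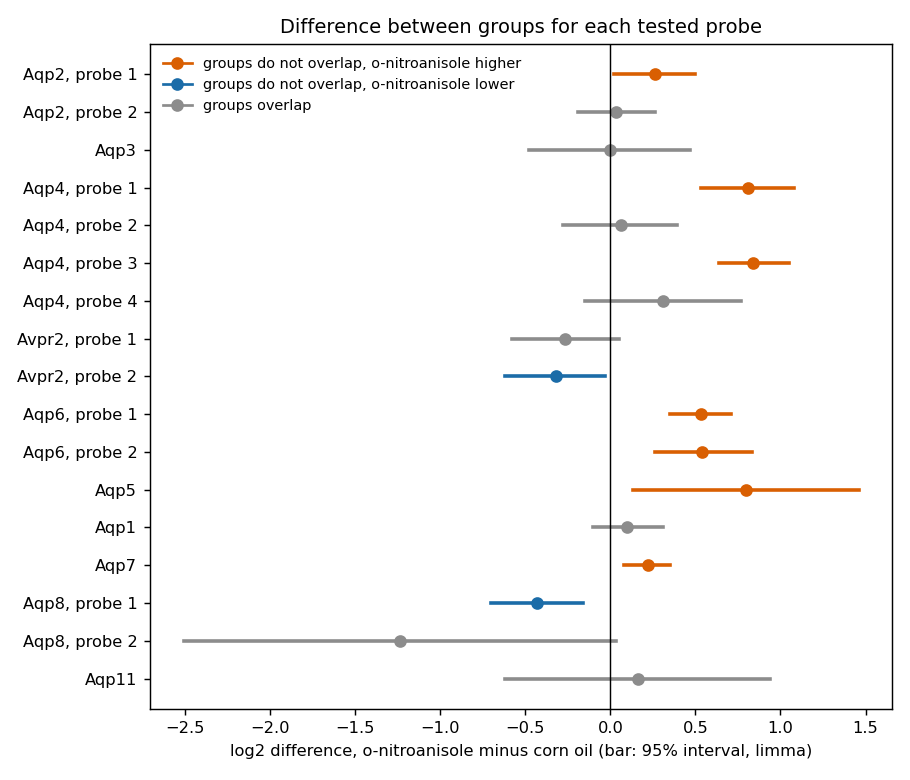
Log2 difference between the groups for each of the 17 tested probes (x axis), with the 95% interval from limma as a bar; colour shows whether the arrays of the groups overlap. Intervals of 9 probes exclude 0, and the widest belongs to Aqp8 probe 2, from -2.51 to 0.03.

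Aqp6 sits in vesicles of acid-secreting intercalated cells together with the proton pump and passes anions as well as water. Its probes gave the same answer. Probe A_44_P558451 read -2.87, -3.07 and -2.97 in corn oil and -2.41, -2.48 and -2.43 after o-nitroanisole, a log2 difference of 0.53 ± 0.07 (adjusted p = 0.0896) or 1.44-fold. Probe A_64_P122362 read -2.96, -3.19 and -2.97 in corn oil and -2.68, -2.36 and -2.44 after o-nitroanisole, a difference of 0.54 ± 0.11 (adjusted p = 0.122) or 1.46-fold. The groups did not overlap on either probe, and the contrast between the probes shifted by -0.02 ± 0.11 (95% interval -0.28 to 0.25). With the trend and robust moderation the adjusted p of the first was 0.0516. Both probes were dim, with corn oil means of -2.97 and -3.04, and with normexp the differences were 0.39 and 0.37.

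Aqp5, best known as the water channel of salivary, lacrimal and airway glands, had 1 dim probe. It read -3.98, -4.44 and -4.08 in corn oil and -3.93, -3.00 and -3.20 after o-nitroanisole, with 1 treated array just above the controls and the others far above them. The difference was 0.80 ± 0.27 (adjusted p = 0.208) or 1.74-fold. It ranged from 0.61 without o-nitroanisole replicate 2 to 1.07 without o-nitroanisole replicate 1, and with normexp it was 0.49.

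Markers of intercalated cells were higher beside Aqp6. Of 17 tested markers 12 were higher and 0 lower at an unadjusted p under 0.05 (70.6%, against 14.0% and 6.63% of all named genes), with a median of 0.36, against 0.04, and 0 past the adjusted threshold. Their summed signal ran from 172 to 201 in corn oil and from 229.8 to 256 after o-nitroanisole. Without the 2 brightest genes it was 72.1 to 82.0 and 95.5 to 109. Slc4a9, a basolateral anion exchanger, lay at 0.69 ± 0.10, Hepacam2, a surface adhesion protein, at 0.56 ± 0.09, and Atp6v0d2, a proton pump subunit, at 0.49 ± 0.09. The list shares Slc4a1 with the red blood cell list, and without it 11 of 16 were higher with a median of 0.32. All tested intercalated markers were well above background on all arrays, and their part in the Aqp6 value was not tested.

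Aqp1, the constitutive channel of the proximal tubule and thin descending limb, which red blood cells also carry, had 1 probe. It read 6.74, 6.69 and 6.76 in corn oil and 6.98, 6.73 and 6.79 after o-nitroanisole. The treated arrays at 6.98 and 6.79 lay above all controls, and the one at 6.73 lay within their range. The difference was 0.10 ± 0.08 (adjusted p = 0.542), with a 95% interval from -0.10 to 0.31, and it turned to -0.04 under quantile normalization. Beside it, 15 of 22 red blood cell markers were higher and 0 lower at an unadjusted p under 0.05 (68.2%, median 0.68), beside 14.0% and 6.63% of all named genes, and their summed signal was 795 to 941 in corn oil and 1372 to 1892 after o-nitroanisole, without overlap. The globins Hba-a3 at 1.14 ± 0.17, Hbb-b1 at 1.06 ± 0.16 and Hbb at 0.67 ± 0.10 had the smallest p-values, and Rhag was well above background on 0 arrays. Of the 22 tested, 20 were well above background on all arrays. Kel, among the higher ones, had a corn oil mean of -5.58, near the background limit. The part of red blood cells in the Aqp1 value was not tested.

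Aqp7, the aquaglyceroporin of the straight proximal tubule brush border, which recovers filtered glycerol, and of fat cells, which release it, was higher by little and with little spread. It read 3.81, 3.85 and 3.88 in corn oil and 4.09, 4.04 and 4.06 after o-nitroanisole, with no overlap. The difference was 0.22 ± 0.06 (adjusted p = 0.151), or 1.16-fold, and 0.14 under quantile normalization. Beside it, 0 of 12 tested adipocyte markers were higher or lower at an unadjusted p under 0.05, and their summed signal overlapped, at 3.65 to 5.09 in corn oil and 4.19 to 4.33 after o-nitroanisole. Fabp4, a fatty acid carrier, lay at -0.97 ± 0.42, Thrsp, a regulator of lipid synthesis, at 0.37 ± 0.17 and the adipokine gene Retn at 1.98 ± 1.1. The corn oil mean of Retn, -6.47, was at the background limit.

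Aqp8, a water channel of pancreas, liver and gut that has also been placed in proximal tubule cells, was dim and lower. Probe A_64_P152776 read -3.32, -3.44 and -3.07 in corn oil and -3.67, -3.79 and -3.66 after o-nitroanisole. All treated arrays lay below all controls, by a difference of -0.43 ± 0.11 (adjusted p = 0.148), 0.741 times the corn oil level. Probe A_44_P244668 read -4.57, -5.75 and -3.87 in corn oil and -5.78, -6.53 and -5.60 after o-nitroanisole, where it was well above background on 2 of 3 arrays. It was thus tested only through the corn oil group, where it was brighter. The value of -6.53 lay below the limit of -5.77 on that array. Its difference of -1.24 ± 0.51 (adjusted p = 0.272) came with overlapping groups and a corn oil SD of 0.95, and was -0.81 without corn oil replicate 3. With normexp the differences were -0.26 and -0.39.

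Aqp11, an unusual aquaporin of the endoplasmic reticulum of proximal tubule cells whose loss causes polycystic kidneys in mice, varied more between rats than between groups. It read 1.18, 2.06 and 1.26 in corn oil and 1.52, 1.32 and 2.14 after o-nitroanisole, with 1 high array in each group. The difference was 0.16 ± 0.32 (adjusted p = 0.812, 95% interval -0.62 to 0.94).

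Proximal tubule markers went both ways: of 28 tested, 6 were higher (21.4%) and 5 lower (17.9%) at an unadjusted p under 0.05. Over all named genes these shares were 14.0% and 6.63%. The markers had a median of 0.09, against 0.04 over all named genes. Their summed signal overlapped, at 4108 to 4432 in corn oil and 4173 to 4269 after o-nitroanisole, and all 28 were well above background on all arrays. The organic anion transporter Slc22a8 at 0.31 ± 0.06, the dicarboxylate transporter Slc13a3 at 0.25 ± 0.05 and Pck1, an enzyme of gluconeogenesis, at 0.57 ± 0.13 had the smallest p-values. The 5 lower ones, named after their values were seen, were the amino acid transporter genes Slc7a13 at -1.41 ± 0.33 and Slc3a1 at -0.36 ± 0.11, Gatm, an enzyme of creatine synthesis, at -0.77 ± 0.20, and the brush border peptidases Mme at -0.84 ± 0.25 and Ggt1 at -0.47 ± 0.17. The endocytic receptor Lrp2 lay at -0.10 ± 0.06 and the phosphate transporter Slc34a1 at -0.01 ± 0.06.

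The remaining aquaporin genes outside the 10 were Aqp9 at -0.45 ± 0.20, Mip at 0.23 ± 0.15 and Aqp12a at 0.00 ± 0.09 log2, and 0 of these 3 reached an unadjusted p under 0.05. Of 27 tested genes that carry the vasopressin signal inside the cell, 4 were higher (14.8%) and 1 lower (3.70%), with a median of 0.09, beside 14.0% and 6.63% of all named genes. With normexp 9 of the 27 were at an unadjusted p under 0.05, with a median of 0.05. Adcy6, the adenylyl cyclase through which vasopressin mainly raises cAMP in the collecting duct, lay at 0.34 ± 0.07, Akap13, an anchor of protein kinase A, at 0.31 ± 0.07 and Adcy3, another adenylyl cyclase, at 0.64 ± 0.17. Adcy3 was near the background limit, with a mean of -5.71 in corn oil and -5.07 after o-nitroanisole. In this list 25 genes were well above background on all arrays. Adcy6 read 1 direction and Avpr2 the other, and neither passed the adjusted threshold.

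Genes for the vesicle traffic and turnover of Aqp2 gave 4 higher (13.8%) and 2 lower (6.90%) of 29, with a median of 0.03. These shares were near the 14.0% and 6.63% of all named genes. The motor Myo5a lay at -0.33 ± 0.07, the vesicle fusion factor Napa at 0.35 ± 0.08 and the membrane fusion protein Snap23 at 0.24 ± 0.07. Of 20 genes for urea, salt and osmolyte handling, 4 were higher (20.0%) and 2 lower, with a median of 0.11. The bicarbonate transporter Slc4a7 lay at -0.59 ± 0.12 and the taurine transporter Slc6a6 at 0.28 ± 0.06. The urea transporter gene Slc14a2, a vasopressin target of the inner medulla, lay at 0.01 ± 0.12, and Nfat5 at -0.07 ± 0.06.

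Markers of the segments around the collecting duct were also read. For these and the vessel and immune lists below, too, 14.0% of all named genes were higher and 6.63% lower. In the thick ascending limb and distal tubule 2 of 14 were higher (14.3%) and 4 lower (28.6%), while 9 of 14 differences were above 0 and the median was 0.12, with S100g at 0.33 ± 0.09, Umod at -0.25 ± 0.07 and Cldn19 at -0.24 ± 0.08, and Pvalb was well above background on 0 arrays. Their summed signal was 555 to 598 in corn oil and 496 to 518 after o-nitroanisole, and without Umod, the brightest, it was 94.9 to 113 and 104 to 117, with overlapping groups. The other lower genes, named after their values were seen, were Cldn10 at -0.29 ± 0.11 and Cldn16 at -0.41 ± 0.16. The other higher gene was Wnk4 at 0.29 ± 0.12. This list joins segments that were not read apart. Of 14 markers of the thin limb and inner medulla, 2 were higher and 1 lower: the claudin Cldn4 at 0.94 ± 0.10, S100a6 at 0.28 ± 0.11 and the chaperone Cryab at -0.96 ± 0.39. The corn oil values of Cryab had an SD of 0.78, and the summed signal of the list ran from 46.2 to 78.6 in corn oil and from 40.5 to 47.7 after o-nitroanisole. Without Cryab, the brightest, it was 26.4 to 29.1 and 23.1 to 32.9. The part of medulla carried along at dissection in the Aqp2, Aqp3 and Aqp4 values was not tested.

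Of 17 endothelial markers 1 was higher, Podxl at 0.39 ± 0.10, which podocytes also express, beside Nos3 at 0.31 ± 0.13 and Kdr at 0.17 ± 0.08. Of 8 smooth muscle and vessel markers 1 was higher and 0 lower, with Actg2 at -0.35 ± 0.17 and Myh11 at 0.17 ± 0.13. Macrophage markers gave 1 higher and 1 lower of 13, Cd14 at 0.51 ± 0.08 and Cx3cr1 at -0.78 ± 0.23, with Lyz2 at -0.21 ± 0.10. Lymphocyte markers gave 0 higher and 1 lower of 11, with Cd79b at 1.35 ± 0.81 and Cd3g at -0.48 ± 0.31. The corn oil mean of Cd79b, -5.74, was near the background limit.

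**Figure D4:**
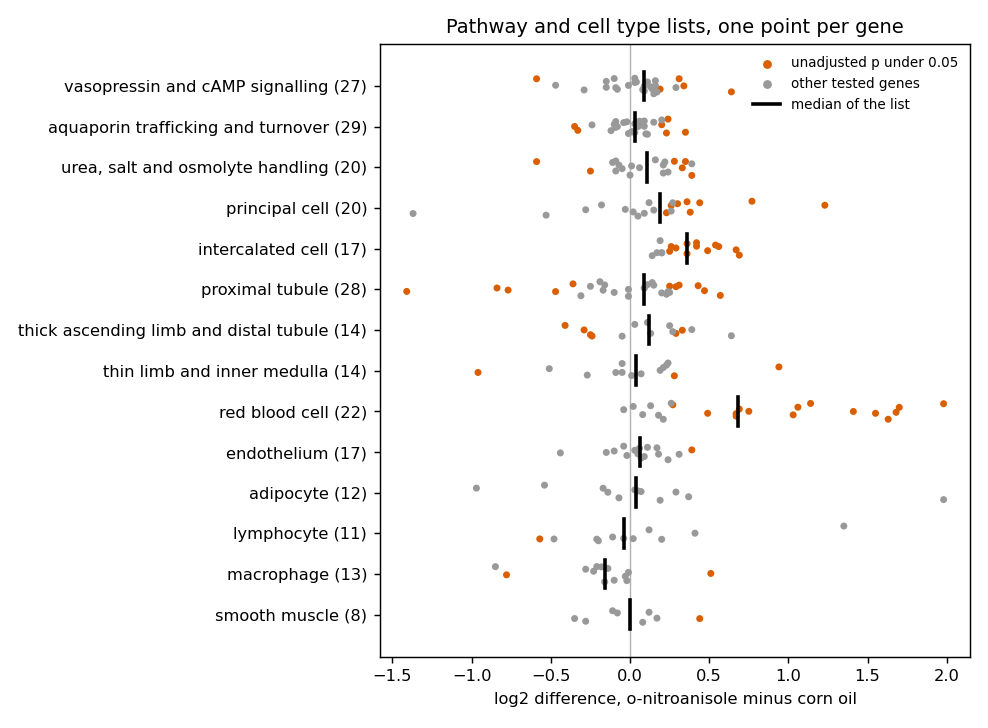
Log2 difference, o-nitroanisole minus corn oil (x axis), of every tested gene of each pathway or cell type list, with the number of genes in brackets, orange for an unadjusted p under 0.05 and a black bar at the list's median. The red blood cell, intercalated cell and principal cell lists have medians of 0.68, 0.36 and 0.19, and the signalling and traffic lists of 0.09 and 0.03.

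Over the 6 arrays, the genes whose pattern was most like that of the brightest Aqp2 probe by Pearson's r, among 11802 named genes, included Cryge (0.997), Ptgfr (0.997), Slco4a1 (0.990) and Ccr1l1 (0.990). Those most like the brightest Aqp4 probe were Ndufb7 (0.997), Prph2 (0.996), Urod (0.996), Yif1a (0.995) and Add1 (0.995). The points of each correlation share the 6 arrays and the contrast between the groups.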

How the data were processed

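Per the file headers, the deposited scanner files hold the intensity of each spot in 1 colour (Cy3). The scanner software was Agilent Feature Extraction; the submitters' processing notes name version 10.7. Background subtraction and spatial detrending within the array precede its processed signal, as the file headers record. The value table that was deposited is a linear ratio of processed signal to the array's 75th percentile, as checked against the scanner files; it was used as an alternative. Its corn oil columns 1, 2 and 3 held the scanner files of replicates 3, 1 and 2, so corn oil replicate numbers are uncertain, though group membership is not. The flags for background and outliers are 0 or 1 per spot.

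From each log2 processed signal the log2 of that array's 75th percentile (non-control probes) was subtracted, and 84 spike-in probes were left out. Of 33356 probes with a RefSeq accession 27460 matched a gene of assembly GRCr8 without version, and 34197 non-control probes stayed unnamed. The array headers name another build, rn4, so that coordinates are given for the printed promoter windows alone. Probes were compared singly in R 4.3.3 by limma 3.58.1, with lmFit and default eBayes and two-sided p-values. The normexp alternative used median spot and local background signals with an offset of 50. Contrasts between probes of a gene were fitted the same way over all genes, and lists used the brightest tested probe of a gene. For 3 against 3 an exact permutation test cannot go below 0.1, so none was used, and the number of arrays limits the precision. The fit was tested on simulated data for 41075 probes. Plots were drawn with matplotlib 3.10.9 in Python 3.11.15.

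All members were named with every probe; of each list the 3 genes with the smallest p were named, and 8 further genes in any case, as far as they were tested. Some genes that this rule names are not reported here. The members, lists and rules were chosen with earlier results of these data known.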

Additional observations from a re-analysis of the deposited data

How the results depend on the processing

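The count of 0 probes past the adjusted threshold held with quantile normalization, median scaling, normexp, no filter on dim probes, detection on all 6 arrays, outlier spots kept, the value table, the replicate block, 1 feature per gene (brightest or mean) and each array left out (0 to 0). Over all tested probes, 147 passed with normexp and at most 4 on leaving out 1 array. In the other settings that kept probes single, 0 passed over all probes, so the member count there was fixed at 0. With trend and robust moderation the member count was 2, both Aqp4 probes, and 0 on leaving out any 1 array, an alternative added after seeing the data. Over all probes that moderation called 663 with all arrays and 0 to 76 on leaving out 1 array. The cause of the lost calls was not tested, apart from each such fit having 1 array fewer. The count of probes whose groups did not overlap was 9, and 8 with quantile normalization, 9 in the other settings with all arrays, and 9 to 12 on leaving out 1 array. Leaving out an array can only keep or raise this count, so that range is no check of it. The replicate block changed no call, with 0 probes past the threshold, and same-numbered arrays, whose deviations correlated at 0.0805, 0.0587 and 0.0249, share only a number. Slide as a block was not run, since each slide held 1 group.

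Of 254 re-estimates of single probes 241 kept their direction and side of the threshold, and 11 turned sign, with the cause not tested. Under quantile normalization Aqp1 lay at -0.04 and Aqp2 probe A_42_P763077 at -0.03. Aqp3 lay at 0.02 with median scaling and 0.06 with normexp, and from -0.14 to 0.16 on leaving out 1 array. The same range was -0.08 to 0.44 for Aqp11, -0.04 to 0.16 for Aqp4 probe A_64_P036063 and -0.05 to 0.09 for Aqp2 probe A_42_P763077. Against the gene's other probes, Aqp4 probe A_64_P018751 turned to 0.12 with no dim filter, and Aqp6 probe A_44_P558451 to 0.02 with normexp and -0.12 to 0.07 on leaving out 1 array. By construction the normexp offset of 50 draws dim probes such as Aqp5, Aqp6, Aqp8 and Aqp4 probe A_44_P819726 toward no change. Of 45 list medians, 8 moved by more than the spread between arrays, and 5 list counts moved by over 1.5 times. Sums without the brightest genes of a list were added after seeing the data. The median of the trafficking list turned from 0.03 to -0.02 with normexp and to -0.03 with quantile normalization. Low signal on some or all arrays limits Aqp8, Aqp5 and Aqp4 probes A_64_P018751, A_44_P934428 and A_44_P448461. The same holds for Aqp4 probe A_44_P819726, whose corn oil mean of -3.85 was close to the -4.17 of Aqp5.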
